A study of Mus musculus with 4 samples.

Results

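The genes described here encode the constitutive proteasome, in clones of the BALB/c mouse plasmacytoma line J558. Members were the genes whose single platform symbol begins with Psma, Psmb, Psmc or Psmd and a number, with the inducible subunits Psmb8, Psmb9 and Psmb10 left out. This rule gave 37 of 18193 measured genes, carried by 76 probe sets, and each gene was represented by its brightest probe set over all arrays. They comprised 16 core particle genes, 17 regulatory particle genes, the assembly chaperones Psmd5, Psmd9 and Psmd10, and Psmc3ip. Psmc3ip matched the rule by its letters only, since it encodes a partner of meiotic recombinases and not a proteasome subunit.

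The study measured 4 clones on Affymetrix mouse expression arrays, 1 array each, in 2 pairs that each held a control and an AID-silenced clone. All clones had been transfected together with a neomycin resistance vector and selected with G418. AID-silenced clones also received a silencing vector holding a sequence against activation-induced cytidine deaminase (AID), the enzyme that starts hypermutation at immunoglobulin genes, and control clones received the same vector empty. Each sample is thus a single drug-selected clone, and p-values measure only how far these clones differ, whether through clonal descent or handling.

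The proteasome degrades proteins marked with ubiquitin. Its barrel-shaped core particle is built of alpha rings that gate the entry and beta rings that hold the cutting sites, and its regulatory particle recognises, unfolds and feeds in the substrates. Plasma cells depend on it because they discard many misfolded immunoglobulin chains, and drugs that block the core are used against plasma cell tumours.

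The deposited values are MAS5 signals, which are brightness values on a linear scale with every array brought to the same trimmed mean of 500. Differences are given as log2(signal + 16). A probe set was tested if its mean lay in the upper 0.5 of all probe sets, which 35 of the 37 members did. The exceptions were Psma8, a testis form of an alpha subunit, with signals of 14.3 to 36.5, and Psmb11, the thymus form of a beta subunit, with signals of 9.6 to 27.3. The plasma cell identity of the clones was borne out by 9 markers, among them Sdc1, Xbp1 and Jchain, with signals from 814 to 51693. Of 17 markers of T, NK, myeloid, stromal and red cells, 11 stayed under a signal of 100 in every clone and the highest signal was 653. Their summed signal went from 1550.6 in the control to 1298.4 in the AID-silenced clone of pair 1 and from 1872.6 to 1548.5 in pair 2, and its part in the results was not tested. Single markers moved with the pair: Mpo, a myeloid enzyme, had 62.2 and 145.3 in the control and AID-silenced clones of pair 1 and 653 and 261 in those of pair 2, and Cd2, a T cell surface protein, 349.7 and 209.9 against 24.4 and 99.1. Their part in the pair differences was not tested either. Array signals are relative to the total RNA of a culture, so less RNA per cell and fewer cells of a kind cannot be told apart.

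The core particle cuts proteins at 3 kinds of site, and each has its own beta subunit. Psmb5 carries the chymotrypsin-like site, the main target of proteasome drugs, Psmb6 the caspase-like site and Psmb7 the trypsin-like site. Their genes are known targets of the transcription factor encoded by Nfe2l1, which binds antioxidant response elements and raises proteasome gene transcription when the proteasome is short. The core of such an element, TGACNNNGC, was searched on both strands from 250 bases before to 50 after the transcription start, using RefSeq sequences of build GRCm38.p6, in which 30 of the 37 members had an entry. It was found in 5 members, Psmb5, Psmb6, Psmc6, Psmd9 and Psmd12, or 16.7%, against 14% of all 27025 genes with an entry. The CCAAT box was found on either strand in 13 members, or 43.3%, against 41.1% of all genes. Both shares thus lay close to those of all genes. A match is a match of letters only.

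The 150 bases before the start are shown, 5′ to 3′ along the gene, for 2 catalytic subunits that hold the element, Psmb5 (chr14:54617996-54618145, minus strand) and Psmb6 (chr11:70525207-70525356, plus strand). They are followed by Psma5 (chr3:108256776-108256925, plus strand), the tested member with the largest difference between pairs, and Psmd8 (chr7:29180674-29180823, minus strand), the 1 tested subunit lower in pair 2 in both conditions on the deposited scale. Capitals mark TGACNNNGC.
Psmb5: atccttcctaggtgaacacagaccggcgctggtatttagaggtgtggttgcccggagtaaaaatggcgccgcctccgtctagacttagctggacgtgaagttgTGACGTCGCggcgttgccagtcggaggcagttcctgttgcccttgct
Psmb6: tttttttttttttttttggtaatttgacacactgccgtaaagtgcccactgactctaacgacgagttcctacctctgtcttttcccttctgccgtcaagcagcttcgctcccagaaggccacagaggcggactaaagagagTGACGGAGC
Psma5: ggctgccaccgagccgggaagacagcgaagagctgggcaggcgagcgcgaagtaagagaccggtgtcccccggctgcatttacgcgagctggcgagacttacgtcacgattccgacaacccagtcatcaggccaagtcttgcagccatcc
Psmd8: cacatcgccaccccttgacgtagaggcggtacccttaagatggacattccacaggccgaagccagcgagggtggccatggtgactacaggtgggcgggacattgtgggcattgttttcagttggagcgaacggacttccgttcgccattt

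The first comparison set the clones of pair 2 against those of pair 1. Subunit genes were almost uniformly brighter in pair 2, by a median of 1.27-fold over the 35 tested members, while the median tested gene was slightly dimmer there. Pair 2 was higher in both the control and the AID-silenced clones for 30 of 35 members, against 26.4% of all 10475 tested genes, and lower in both for 3, against 38.5%. Both clones of pair 2 lay above both clones of pair 1 for 27 members, against 19.5% of tested genes, and below them for 3, against 29.3%. The core and regulatory particles moved to a like extent: the median log2 difference was 0.36 over 14 core genes and 0.34 over 17 regulatory genes, against −0.07 over all tested genes.

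No tested member passed limma at a Benjamini-Hochberg adjusted p of 0.05 for pair 2 against pair 1, and neither did any of the 22519 tested probe sets (0%). An unadjusted p under 0.05 was reached by 16 of 35 members, against 13.5% of probe sets. Adjusted p ran from 0.260 to 0.973 over the members. The directions below therefore describe these 4 clones.

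**Figure D1:**
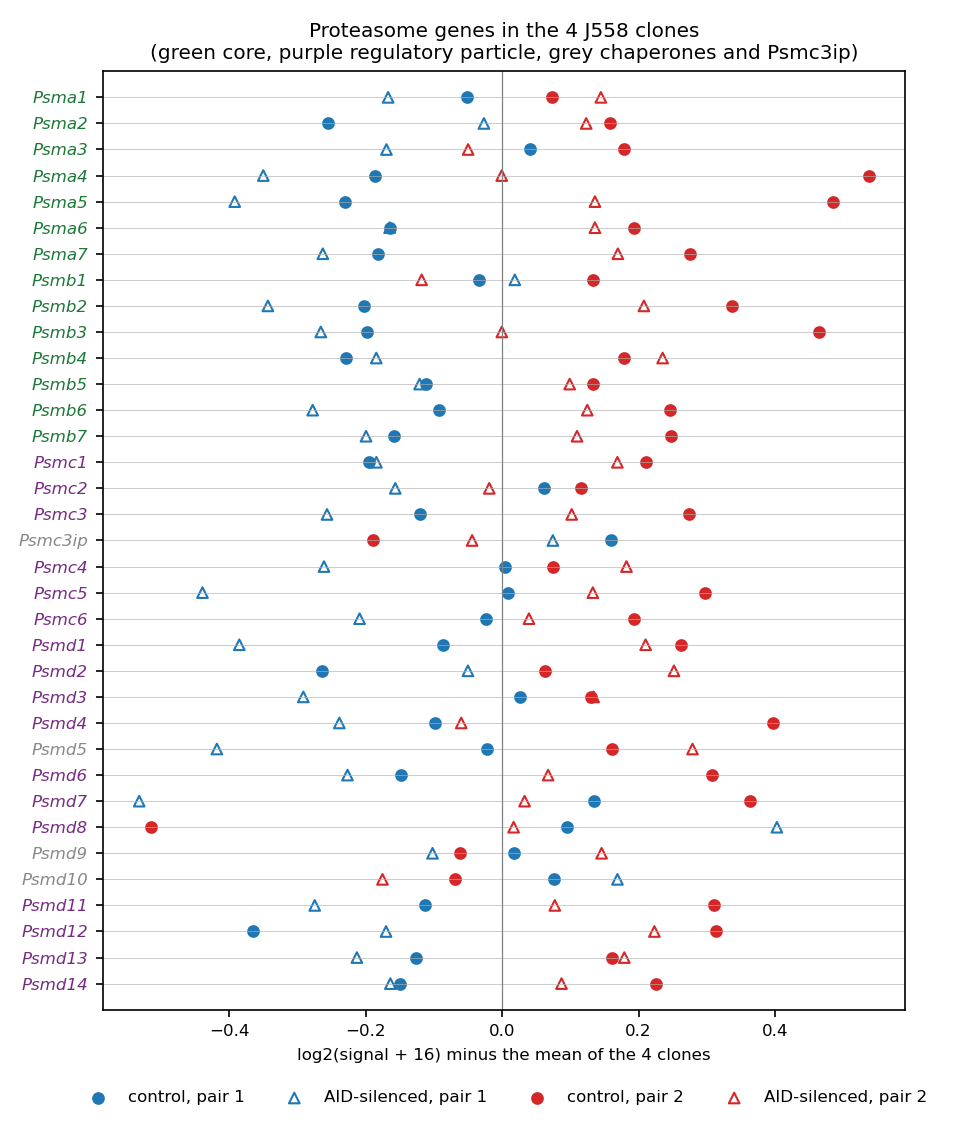
Each row is a tested proteasome gene and the x axis gives log2(signal + 16) of a clone minus the mean of the 4 clones, with circles for control, triangles for AID-silenced, blue for pair 1 and red for pair 2. Red symbols lie to the right of both blue ones in 27 of the 35 rows, and Psmd8 is the subunit in which they lie to the left.

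Bright genes in general were higher in pair 2, and proteasome genes are bright. Among the 1190 tested genes with a mean log2 signal of 12 or higher, 54.2% were higher in pair 2 in both conditions, with a median difference of 0.15. Of the 28 members in this class, 26 were, with a median of 0.36, and 1 was lower in both, against 18.9% of the class. The pairs did not overlap, with pair 2 higher, for 24 of the 28, against 44.3%, and 16 of the 28 had an unadjusted limma p under 0.05, against 24% of the class. When all tested genes were split into classes of 1 log2 unit of mean signal, 29 of 35 members lay above the median of their own class. Between 13 and 14 log2 units, where 19 members lay, the median was 0.37 for members and 0.19 for all 312 genes. Quantile normalisation, which gives all arrays the same spread of values, lowered the members' median from 0.34 to 0.20 and that of the bright class from 0.15 to 0.01. It left 26 members higher and 6 lower in pair 2 in both conditions, against 29.0% of all tested genes and 34.4% of the bright class higher.

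**Figure D2:**
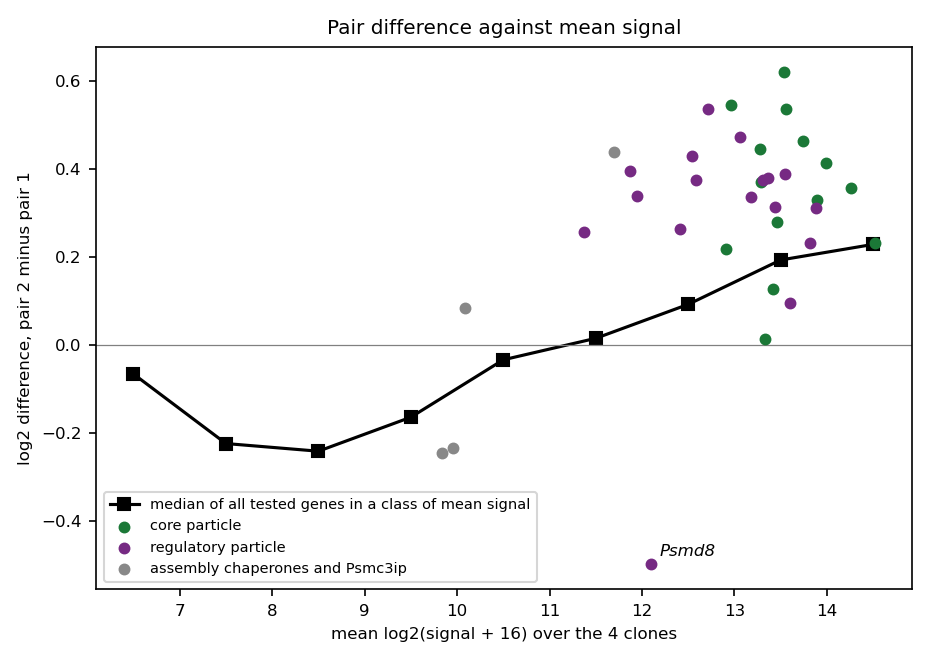
The x axis gives each gene's mean log2(signal + 16) over the 4 clones and the y axis its mean log2 difference, pair 2 minus pair 1; squares joined by a line are medians of all tested genes in classes of mean signal. The line climbs from −0.24 in the class from 8 to 9 to 0.23 in the brightest class, and 29 of 35 members lie above their class.

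In the alpha rings, which control access to the chamber, all 7 tested members were higher in pair 2 in both conditions. Psma5 had signals of 10153.5 in the control and 9071 in the AID-silenced clone of pair 1, and 16679 and 13086.5 in those of pair 2. The pairs did not overlap, and the log2 difference was 0.62 ± 0.16 (SE, n = 2 per pair, limma adjusted p = 0.260). Psma4 had 10543 and 9414 in pair 1 and 17431 and 11999 in pair 2, so that the control clone of pair 2 stood out. Psma7 went from 8710 and 8238 to 11973 and 11122, with the conditions close together in each pair. Psma3, at the other end, had overlapping pairs and a difference of only 0.13. The second bright probe set of Psma5 gave 0.66, and another, with signals of 51.6 to 66.0, gave −0.21.

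In the beta rings, 6 of 7 tested members were higher in pair 2 in both conditions. Psmb2, a beta subunit without a cutting site, had 6950.4 in the control and 6299 in the AID-silenced clone of pair 1, and 10107 and 9237 in those of pair 2. This was the smallest unadjusted p among members (log2 difference 0.55 ± 0.14, SE, n = 2 per pair, limma adjusted p = 0.260). Psmb3 had 11903 and 11353.5 in pair 1 and 18839 and 13649 in pair 2, a pattern like that of Psma4 in which the control clone of pair 2 was highest. Psmb4, whose tail helps to join the parts of the core, had 13839 and 14273 against 18358 and 19097. Its second bright probe set had 6848.5 and 5681 against 6563 and 7395, which overlap. Psmb1 was the beta ring exception at the probe sets used, with 10043 and 10412 in pair 1 and 11273 and 9471 in pair 2, which overlap.

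Of the catalytic members, Psmb6 and Psmb7 lay near the members' median and Psmb5 below it. Psmb6 had 9349 in the control and 8222 in the AID-silenced clone of pair 1, and 11824 and 10872 in those of pair 2, a log2 difference of 0.37. Psmb7 had 17598 and 17101 against 23325 and 21193, a difference of 0.36. For both genes the pairs did not overlap. Psmb5 had 21732 and 21589 against 25754 and 25147, a difference of 0.23 that turned to −0.01 under quantile normalisation and under cyclic loess normalisation. No direction is therefore given for Psmb5, whose 2 relatives kept theirs at 0.20 and 0.13 under quantile normalisation.

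The inducible counterparts, which replace the constitutive catalytic subunits in the immunoproteasome of interferon-treated and immune cells, did not follow the constitutive genes. Psmb9, the counterpart of Psmb6, had 2120.0 and 1940.1 in pair 1 and 411 and 979.8 in pair 2. Psmb8, the counterpart of Psmb5, had 3229 and 1953.5 in pair 1 and 638 and 1639.7 in pair 2. Both were lower in pair 2, by log2 differences of −1.65 and −1.28, and the lowest signals lay in the control clone of pair 2 (limma adjusted p = 0.254 and 0.344). Without the control clone of pair 2 the differences were −1.04 and −0.61, and without the AID-silenced clone of that pair −2.26 and −1.95. Psmb10, the counterpart of Psmb7, differed in another way: the AID-silenced clone of pair 1, at 1709.8, stood below the other three at 3340.1 to 4351.

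**Figure D3:**
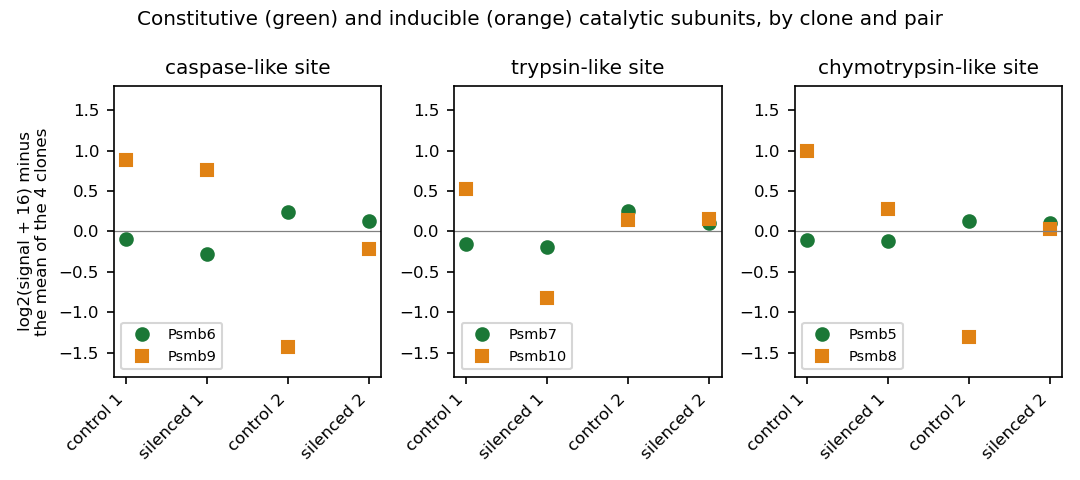
For each cutting site, the constitutive subunit (green circles) and its inducible counterpart (orange squares) are plotted as log2(signal + 16) minus that gene's own mean over the 4 clones, by condition and pair. The green points stay within a narrow band and are higher in pair 2 on the deposited scale (for Psmb5 the sign turned under quantile normalisation), while Psmb9 and Psmb8 have their lowest point in the control clone of pair 2.

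The base of the regulatory particle holds 6 ATPases that unfold the substrate and pull it into the core, and larger scaffold subunits. All 6 ATPase genes, Psmc1 to Psmc6, were higher in pair 2 in both conditions, with mean log2 differences from 0.10 for Psmc2 to 0.43 for Psmc5. Psmc5 had 5981.5 and 4381 in the control and AID-silenced clones of pair 1, and 7313 and 6521 in those of pair 2. Psmc1 had 9194 and 9266 against 12192 and 11841, so that the conditions were nearly level and the pairs apart. At the probe sets used, Psmc2 was the 1 ATPase gene whose pairs overlapped. At its second bright probe set the pairs of Psmc2 did not overlap. Of the other base subunits, the scaffold Psmd1 had 8044 and 6539 in pair 1 and 10249 and 9888 in pair 2 (0.47), the scaffold Psmd2 differed by 0.31 and the ubiquitin receptor Psmd4 by 0.34.

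The lid removes the ubiquitin chain before degradation. Of its 8 members, 7 were higher in pair 2 in both conditions. Psmd12, a structural lid subunit, had 5182 and 5937 in the control and AID-silenced clones of pair 1 and 8304 and 7802 in those of pair 2, a log2 difference of 0.54 ± 0.15 (SE, n = 2 per pair, limma adjusted p = 0.268). Psmd14, the deubiquitinating enzyme of the lid, had 13596 and 13457.5 against 17636 and 16016, a difference of 0.31. Psmd7, its binding partner, differed by 0.40, but its pairs overlapped, since the control clone of pair 1 at 4107.5 lay above the AID-silenced clone of pair 2 at 3825.

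On the deposited scale, Psmd8 was the 1 tested subunit lower in pair 2 in both conditions. This lid subunit, the last to join in lid assembly, had 4681 in the control and 5797 in the AID-silenced clone of pair 1 and 3062 and 4433 in those of pair 2. All of pair 2 lay below all of pair 1, and the log2 difference was −0.50 ± 0.23 (SE, n = 2 per pair, limma adjusted p = 0.400). It was −0.55 under quantile normalisation. Under quantile and under cyclic loess normalisation, 2 core and 2 regulatory subunits were lower in pair 2 in both conditions. A single probe set represented Psmd8, so no second measurement on these arrays bears on it.

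**Figure D4:**
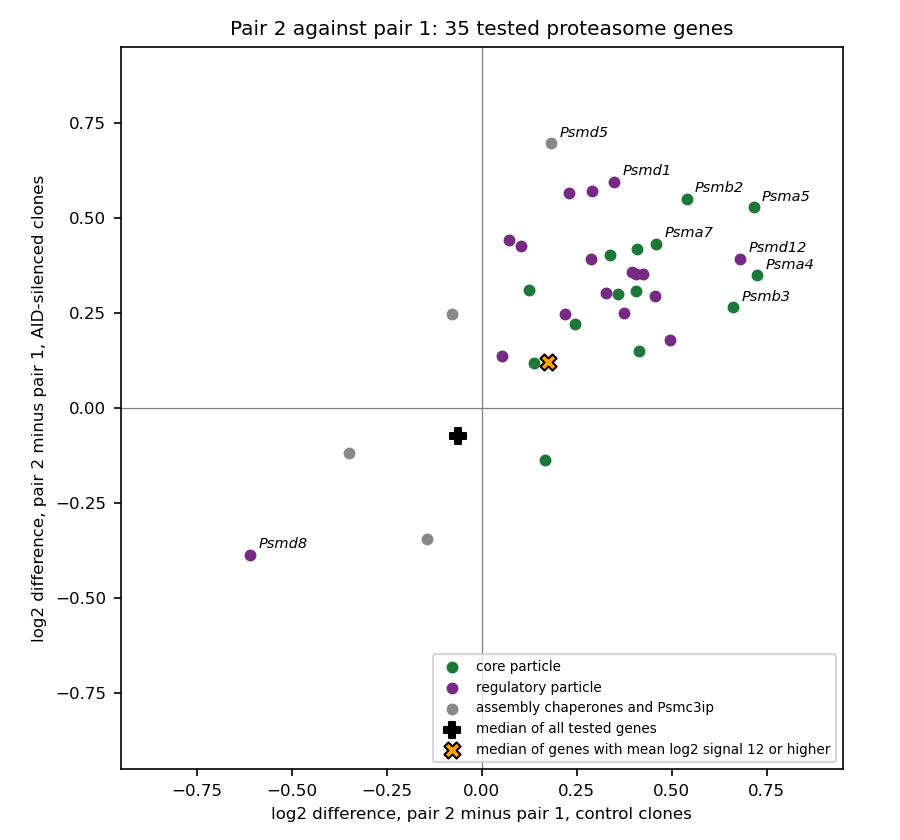
Each point is a tested proteasome gene, with the log2 difference of pair 2 minus pair 1 in the control clones on the x axis and in the AID-silenced clones on the y axis; the black plus and the orange cross are the medians of all tested genes and of bright genes. On the deposited scale, most members lie at the upper right, with 30 of 35 higher in both, and Psmd8 lies alone among subunits in the lower left.

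The 4 genes that are no subunits differed among themselves. Psmd5, a chaperone of base assembly, had 3251 and 2466 in pair 1 and 3691 and 4008 in pair 2. Psmd10, the chaperone also called gankyrin, had 948 and 1013 in pair 1 against 856.5 and 794.5 in pair 2. Psmc3ip had 1094 and 1030.5 against 856 and 948. Thus Psmd5 was higher in pair 2, Psmd10 and Psmc3ip lower, and Psmd9, a further base chaperone, overlapped between pairs. Psmd10 and Psmc3ip lay in the class of 9 to 10 log2 units, in which the median of all tested genes was −0.16.

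The members' median pair difference was 0.34 among control clones and 0.31 among AID-silenced clones. Over the 35 members, the differences in control clones and in AID-silenced clones, which share no clone, correlated across genes at Pearson r = 0.62 and Spearman rho = 0.34. Without Psmd8 r was 0.48. Over all 22519 tested probe sets r was 0.306 and rho 0.336, so the members' rho was close to that of all probe sets. All points share the same 4 arrays, and genes are not independent replicates. In the control clones 4 members were at least 1.5-fold higher in pair 2, namely Psma4, Psma5, Psmb3 and Psmd12, against 9.83% of tested genes. In the AID-silenced clones 2 members were, Psmd1 and Psmd5, against 6.81%. In the other direction 1 member was at least 1.5-fold lower among control clones, Psmd8, against 16.7%, and 0 among AID-silenced clones, against 15.9%.

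Further probe sets of the members were also counted by direction. Of the 32 other tested probe sets of the members, 28 were higher in pair 2 by the mean. In the AID-silenced clones 22 of the 32 were lower by the mean. The median tested gene differed by −0.07 between pairs and −0.005 between conditions. No such counts were made over all tested probe sets, nor counts of like sign over other genes with several. Among the 18 members with more than 1 tested probe set, 15 had the same sign at all of them, the exceptions being Psma1, Psma5 and Psmb1. For AID-silenced against control only 10 of the 18 had the same sign at all of them. The members lie on 16 chromosomes.

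The second comparison, the one the study was designed for, set AID-silenced against control clones within each pair. Proteasome genes were slightly lower in the AID-silenced clones, by a median log2 difference of −0.12 in pair 1 and −0.11 in pair 2, against 0.00 and −0.01 over all tested genes. They were lower in both pairs for 20 of 35 members, against 27.5% of tested genes, higher in both for 3, against 26.7%, and opposite for 12, against 45.7%. In the bright class, 19 of 28 members and 34.2% of all genes were lower in both pairs, and 3 members and 22.7% of all genes higher. The core and regulatory medians were −0.10 and −0.16.

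The main limma fit takes no account of the pairs, so the difference between pairs counts in it as spread between clones. That difference also bears on the counts of groups that did not overlap. A small step within each pair can be missed by both. With the pair number added to the fit, 3 of 35 members had an unadjusted limma p under 0.05, against 1718 of 22519 probe sets. Psmd7 and Psma4 were lower and Psmd8 higher, and 0 members passed the adjusted threshold. In the main fit no member passed limma for AID-silenced against control, where 2 of 22519 probe sets did (0.00888%). There 0 members had an unadjusted p under 0.05, against 3.49% of probe sets. In the bright class it was 0 of 28 members and 2.77% of genes. Both AID-silenced clones lay below both control clones for only 3 members, against 14.4% of tested genes, and above them for 0, against 14.3%. The members' median turned to 0.06 without the AID-silenced clone of pair 1 and to 0.04 without the control clone of pair 2, when the groups no longer hold both pairs equally.

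**Figure D5:**
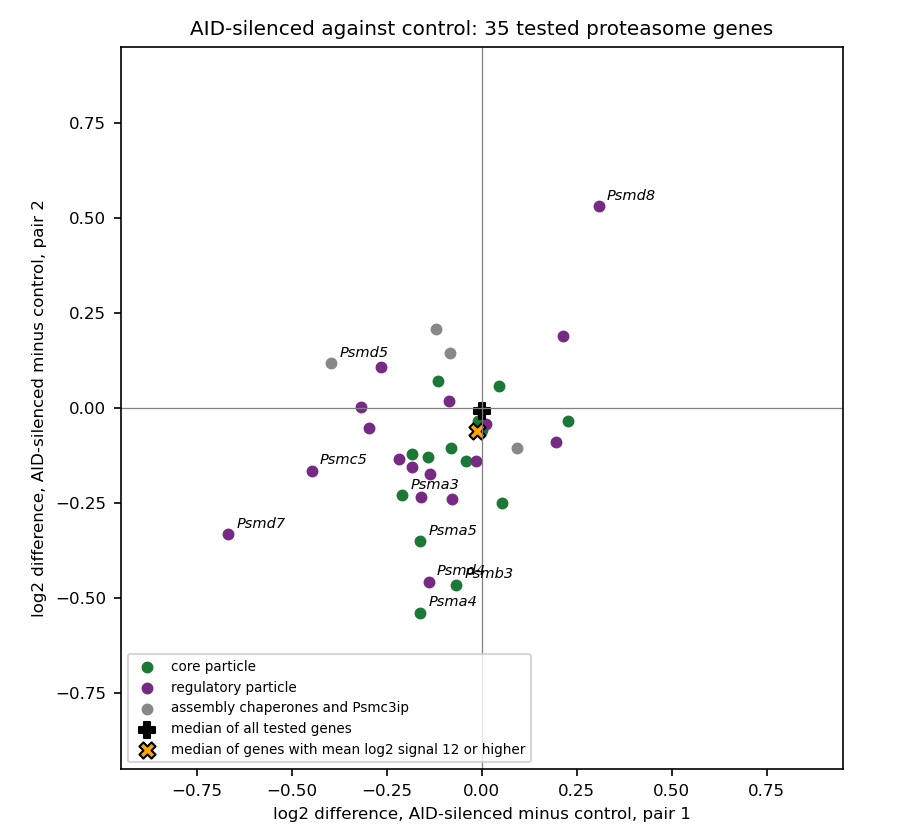
Each point is a tested proteasome gene, with the log2 difference of AID-silenced minus control in pair 1 on the x axis and in pair 2 on the y axis; the black plus and the orange cross are the medians of all tested genes and of bright genes. At the lower left lie 20 of 35 members, Psmd7 lies farthest left and Psmd8 is in the upper right.

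The 3 members with groups that did not overlap were Psmd7, Psma3 and Psmc2. In pair 1 Psmd7 went from 4107.5 in the control to 2581 in the AID-silenced clone, and in pair 2 from 4815 to 3825. Its log2 difference of −0.50 ± 0.26 (SE, n = 2 per group, limma adjusted p = 0.9996) was the lowest among tested members, although its dimmer probe set gave 0.21. It was also the 1 tested member at least 1.5-fold lower within a pair, in pair 1, against 6.95% of tested genes, while 0 were in pair 2, against 9.16%. None was 1.5-fold higher, against 9.41% of tested genes in pair 1 and 10% in pair 2. Psma3 went from 11229.8 to 9706 in pair 1 and from 12362 to 10547 in pair 2, and its difference of −0.22 had nearly the same size in both pairs. Psmc2 went from 12986 to 11168 and from 13484 to 12289. Its second bright probe set went from 9202 to 8182 in pair 1 and from 9972 to 10033 in pair 2, where the groups overlap.

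Other members differed mainly in 1 pair at the probe set used. Psma4 was lower by −0.16 in pair 1 and −0.54 in pair 2, Psmb3 by −0.07 and −0.46, and Psmd4 by −0.14 and −0.46, following the high control clone of pair 2. Psma5 gave −0.16 and −0.35. Psmc5 gave −0.45 and −0.16, the wider gap being in pair 1. A second bright probe set gave −0.28 and −0.41 for Psmb3, −0.20 and −0.21 for Psmd4, and −0.18 in both pairs for Psma5. The pattern of 1 pair thus depended on the probe set for these genes. Psmd4 itself had 8681 in the control and 7874 in the AID-silenced clone of pair 1, and 12240 and 8914 in those of pair 2. Psmd11, a lid subunit, went from 11042 to 9872 and from 14821 to 12602, a like step in each pair. Without the control clone of pair 2 the mean difference became 0.01 for Psma4, 0.10 for Psma5 and 0.06 for Psmb3. Leaving out the AID-silenced clone of pair 1 instead gave 0.008 for Psma5. With a clone left out the groups no longer held both pairs equally, so these values also carry the difference between pairs.

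Among the members higher in both AID-silenced clones, Psmd8 was again set apart, going from 4681 to 5797 in pair 1 and from 3062 to 4433 in pair 2, so that the AID-silenced clone of pair 2 lay below the control of pair 1. Its log2 difference was 0.42 ± 0.28 (SE, n = 2 per group, limma adjusted p = 0.9996). Psmd2 went from 9217 to 10693 and from 11564 to 13187, which is 0.21 and 0.19 on the log2 scale. Psmb4 differed by 0.04 and 0.06, but its second bright probe set by −0.27 and 0.17. The catalytic genes had mean differences of −0.02 for Psmb5, −0.15 for Psmb6 and −0.09 for Psmb7. Psmb6 and Psmb7 were lower in both pairs. Psmb5 was nearly level, at −0.01 and −0.03, and its mean was 0.02 under cyclic loess normalisation. All of these catalytic means turned positive without the AID-silenced clone of pair 1 and without the control clone of pair 2. The groups then no longer held both pairs equally, so those values also carry the difference between pairs.

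Genes that work with the proteasome were taken from 8 lists of 37 symbols, with older names of listed genes left out of the count. Of the 37, 28 matched a probe set of 1 symbol, and all 28 were tested. Of these, 0 passed limma at an adjusted p of 0.05 in either comparison. At an unadjusted p under 0.05 there was 1 for AID-silenced against control, against 3.49% of probe sets, and 6 for pair 2 against pair 1, against 13.5%. Pair 2 was higher in both conditions for 12 of the 28, against 26.4% of all tested genes, and lower for 9, against 38.5%. Their median log2 difference was 0.06, against −0.07 for all tested genes and 0.34 for the members. Most of the 28 had a mean log2 signal between 10 and 13. In the classes of 1 log2 unit over that range, the medians of all tested genes were −0.03, 0.02 and 0.09. In those classes 28.2%, 34.5% and 45.2% of genes were higher in pair 2 in both conditions.

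Individual partners did lie close to the members. Vcp, the ATPase that extracts ubiquitinated proteins for the proteasome, had 16472 and 15919.5 in the control and AID-silenced clones of pair 1 and 23965 and 22909 in those of pair 2 (log2 difference 0.53 ± 0.11, SE, n = 2 per pair, limma adjusted p = 0.245). Its cofactor Nploc4 had 3286 and 2442 against 3798 and 3832, a difference of 0.43. Pomp, the chaperone needed to assemble the core, had 7087 and 6647 against 8806 and 10185, a difference of 0.46. The 4 segregase genes had a median of 0.40 and the 4 other regulators of the core a median of −0.07.

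Nfe2l1, whose product raises transcription of proteasome genes, was lower in pair 2. Its signals were 3613 and 3237 in the control and AID-silenced clones of pair 1 and 2065 and 1962 in those of pair 2, and the pairs did not overlap. The log2 difference was −0.76 ± 0.17 (SE, n = 2 per pair, limma adjusted p = 0.245), opposite in sign to the members' median. Nfe2l2, a related factor that responds to oxidative stress, had 1528 and 1554 against 1634.5 and 1774. It differed by 0.14, and the sign turned when its probe sets were averaged.

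Between AID-silenced and control clones, Usp14 had the widest difference of the listed genes with the same sign in both pairs. Usp14, a deubiquitinating enzyme bound to the regulatory particle, went from 4028 to 5849.5 in pair 1 and from 3960.0 to 5771 in pair 2. The log2 difference of 0.54 ± 0.19 was the same in both pairs (SE, n = 2 per group, limma adjusted p = 0.9996), and the groups did not overlap, although 1 of its 4 tested probe sets gave −0.16. Psmf1, an inhibitor of the core, lay the other way, from 1840.2 to 1312 and from 1535 to 1262. Ubqln4, a shuttle for ubiquitinated proteins, went from 1651 to 1310.2 and from 1586 to 1334. The log2 steps were −0.48 and −0.28 for Psmf1 and −0.33 and −0.25 for Ubqln4.

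Ufd1, a cofactor of Vcp named outside the rule for listed genes, went from 2617.5 to 3732 in pair 1 and from 3449 to 4343 in pair 2, a mean log2 difference of 0.42 with groups that did not overlap. Uba6, an enzyme that activates ubiquitin, went from 2420 to 2184 in pair 1 and from 2287 to 1694 in pair 2. Psme3, the nuclear activator of the core, went from 2388.5 to 1954 and from 2153 to 1917. Psmg2, a chaperone of alpha ring assembly, went from 4583 to 5013 and from 4283 to 5774. Sem1, a small lid protein, went from 5794 to 6513 and from 6114 to 6546, so Uba6 and Psme3 were lower and Psmg2 and Sem1 higher in both AID-silenced clones.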

How the data were processed

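Total RNA of 4 clones was hybridised to 1 array each. Each probe set has 1 deposited intensity per array, not log-transformed, and the submitters' processing notes name MAS5. The trimmed mean was checked and equalled 500 on every array, so no further scaling was applied. Of 45101 probe sets, 64 Affymetrix controls were left out and 22519 with a mean signal of at least about 49.4 were tested. The platform annotation gave 34958 probe sets 1 symbol and 932 several, and 9211 were not listed. The gene identifiers of all 37 members matched the RefSeq table of GRCm38.p6.

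Log2(signal + 16) was fitted with limma 3.58.1 (lmFit, eBayes with trended, robust prior, R 4.3.3) for AID-silenced against control and for pair 2 against pair 1, adjusted over all tested probe sets. Because of the added 16, differences of dim genes come out too small. On data simulated for AID-silenced against control (22519 probe sets, 50 changed at each of several sizes), limma recovered 3 at a log2 difference of 0.5, 22 at 1 and all 50 at 2, with 9 false calls. The simulated spread was independent between clones, depended on mean signal alone and held no difference between pairs. Recovery in the real arrays can therefore differ.

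The labels number the clones as pairs, without saying what the clones of a pair share. The members, lists and tests were chosen with earlier results of these data known. Genes named with values were the catalytic subunits and their counterparts, up to 3 members per ring, base or lid and comparison with the largest difference of the same sign in both pairs or conditions, Nfe2l1, Nfe2l2, Pomp, and up to 2 genes per partner list chosen likewise. Psma8, Psmb11, the chaperones, Psmb1, Psmc2, Psmd14, Psmc3ip, Ufd1, Mpo and Cd2 lie outside that rule and were picked with their values in view. The bright class and cyclic loess normalisation were also added after seeing the data. The level of the silenced gene is not reported here. Alternatives were other normalisations, pseudocounts of 1 and 64, other filters, averaged probe sets, the block and leaving out each clone. Figures were drawn with matplotlib 3.10.9.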

Additional observations from a re-analysis of the deposited data

Results flagged for a closer look

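Psmb8, the inducible counterpart of Psmb5, was at least 1.5-fold apart between AID-silenced and control clones in opposite directions in the 2 pairs. The log2 difference was −0.72 in pair 1 and 1.34 in pair 2. With 1 clone of each condition in a pair, the difference between the pairs was not tested. None of the 35 tested constitutive members was 1.5-fold apart in opposite directions.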

How the results depend on the processing

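For pair 2 against pair 1, the members' median log2 difference of 0.34 was 0.20 under quantile and 0.21 under cyclic loess normalisation, 0.17 and 0.17 for core subunits (0.36 as reported) and 0.21 and 0.22 for regulatory subunits (0.34 as reported). By construction, both act on differences that vary with brightness. Leaving out 1 clone gave 0.27 to 0.39 for members and 0.28 to 0.41 for core subunits, and median scaling, other pseudocounts, filters and averaged probe sets stayed within 1 SD between clones. For AID-silenced against control, leaving out 1 clone gave −0.28 to 0.055 for members, −0.29 to 0.10 for core and −0.30 to 0.049 for regulatory subunits. The groups then no longer hold both pairs equally, so the pair difference enters these values and the sign changes given below. The count of called probe sets for AID-silenced against control was 2, with the pair block 8 and with 1 clone left out 0 to 146, and for pair 2 against pair 1 it was 0, with the block 4 and with 1 clone left out 0 to 59. A clone left alone in its group is then assumed to vary like the others. In these fits 0 members were called. The pair block rests on the number alone: differences between pairs correlated across probe sets between conditions at r = 0.306. With the block, 3 of 35 members had an unadjusted limma p under 0.05 for AID-silenced against control, against 1718 of 22519 probe sets. For the pair comparison 19 of 35 did, against 3559 of 22519. Signs of the named genes changed in 8 of 216 values for the pair comparison (Nfe2l2, Psmb5, Psmf1, Sem1 and Usp14) and in 3 of 192 for AID-silenced against control (Nfe2l2, Psmb5 and Vcp) over settings other than leaving out a clone. Leaving out 1 clone changed the sign in 18 of 96 values for AID-silenced against control, over 11 of 24 genes (Nfe2l1, Nfe2l2, Psma4, Psma5, Psmb2, Psmb3, Psmb5, Psmb6, Psmb7, Psmd11 and Vcp), and in 6 of 108 for the pair comparison, over 4 of 27 (Psme3, Psmf1, Sem1 and Usp14). With 2 arrays per group, their number limits the precision of every value.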

Other observations

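Psmd11, a lid subunit that braces the regulatory particle against the core, was measured by 5 tested probe sets. All 5 were higher in pair 2, by log2 differences between 0.20 and 0.97, whereas the differences between AID-silenced and control clones ran from −0.43 to 0.40.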
